A study of Mus musculus with 12 samples.

Results

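The genes described here are a list of 7 that take part in antigen presentation on major histocompatibility complex (MHC) class II in the mouse: H2-Aa, H2-Ab1, H2-Eb1, H2-DMa, H2-DMb1, Cd74 and Ciita. They were taken by symbol, and all 7 were found among the 54532 genes of the expression table. The study compared mouse bone-marrow-derived macrophages with osteoclasts, the bone-resorbing cells that form from the same precursors, both studied untreated and after lipopolysaccharide (LPS), which comes from the outer membrane of Gram-negative bacteria. RNA was sequenced in 12 libraries, 3 in each of 4 groups. The cells of all 4 groups came from wild-type (WT) mice, whose strain, sex and age the labels do not give, and all were grown with CMG, which supplies M-CSF, the growth factor of macrophages. Macrophages received no RANKL, and osteoclasts received RANKL, the ligand that drives osteoclast formation, for which the sample source gives 100 ng/mL and the protocol a range. LPS was added at 100 ng/mL for 3 h on day 5 to 1 group of each cell type. The labels do not say whether the 3 libraries of a group came from separate animals or cultures, so p-values measure the spread between these libraries, which may be technical.

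MHC class II molecules are pairs of an alpha and a beta chain that display peptides from engulfed or internal material to CD4 T cells. The chains assemble in the endoplasmic reticulum with the invariant chain, which travels with them to endosomes and is degraded there, and the DM protein then helps to exchange the last invariant-chain fragment for an antigenic peptide. CIITA is the transcriptional co-activator on which class II transcription depends; it is recruited by factors bound to a conserved promoter module of the S, X and Y boxes. Macrophages carry little class II at rest and gain much more when exposed to interferon gamma.

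The promoters are shown first because 3 of the genes share a spaced pair of motifs. RefSeq promoter windows on build GRCm38.p6 matched 4 of the 7 genes, H2-Aa, H2-Eb1, H2-DMa and H2-DMb1; H2-Ab1, Cd74 and Ciita were not matched. The search looked on both strands for GNAAC, letters of the X box kind, followed on the same strand by GATTGG, an inverted CCAAT motif of the Y box kind, with 20 to 40 bases between them. The 2 motifs cannot overlap at that spacing, and the letters and the spacing were chosen after the windows had been seen. Of 32536 distinct promoter windows of 250 bases, 0.996% held the pair, 79.5% held GNAAC and 14.6% held GATTGG. The 250 bases before the start, 5′ to 3′ on the strand of the gene, are given with the pair in capitals.
H2-Aa: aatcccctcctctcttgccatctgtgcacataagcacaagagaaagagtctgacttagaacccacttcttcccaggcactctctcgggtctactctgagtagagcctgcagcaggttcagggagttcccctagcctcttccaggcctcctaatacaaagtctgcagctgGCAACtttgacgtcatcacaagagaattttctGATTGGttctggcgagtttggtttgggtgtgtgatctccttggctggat
H2-Eb1: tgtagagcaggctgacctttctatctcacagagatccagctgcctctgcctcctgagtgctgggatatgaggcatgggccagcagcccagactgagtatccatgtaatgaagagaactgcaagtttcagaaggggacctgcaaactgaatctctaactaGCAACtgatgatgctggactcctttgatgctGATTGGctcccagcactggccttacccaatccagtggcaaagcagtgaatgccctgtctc
H2-DMb1: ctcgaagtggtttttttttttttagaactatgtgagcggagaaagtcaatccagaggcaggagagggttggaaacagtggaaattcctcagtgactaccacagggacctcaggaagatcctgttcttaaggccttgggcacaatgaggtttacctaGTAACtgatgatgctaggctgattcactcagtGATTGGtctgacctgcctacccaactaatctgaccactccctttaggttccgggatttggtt
H2-DMa: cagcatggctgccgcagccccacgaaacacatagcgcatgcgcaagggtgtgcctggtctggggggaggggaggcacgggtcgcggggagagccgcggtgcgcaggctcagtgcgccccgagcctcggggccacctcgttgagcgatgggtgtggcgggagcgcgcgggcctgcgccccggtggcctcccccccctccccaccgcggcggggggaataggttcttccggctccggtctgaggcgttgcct
The windows lie at chr17:34287824-34288073 on the minus strand for H2-Aa and, on the plus strand, at chr17:34305617-34305866 for H2-Eb1, chr17:34152941-34153190 for H2-DMb1 and chr17:34122582-34122831 for H2-DMa. The motifs of the pair were 27 bases apart in H2-Aa, 26 in H2-Eb1 and 27 in H2-DMb1. The pair was not particular to the 7 genes. Among other class II chains it was also found for H2-Oa, H2-Ob and H2-Eb2, with 27, 24 and 26 bases between, and not for H2-DMb2. Neither of the 2 RefSeq windows of H2-DMa held the pair, and the one shown is that of the first listed start. Both lie inside the gene as annotated (34119541 to 34139101), so the bases before its annotated start were not searched. Which start these cells use was not tested. A match is a description of letters and not a measured binding site, and no match says only that these letters were not in that window.

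Sequencing depth was even across the groups, with 15650669 to 20279892 reads assigned to genes per library. The authors deposited FPKM, fragment counts divided by gene length and by a denominator for each library. That denominator followed the typical gene and not the read total, so every difference given here is relative to the typical gene. After rescaling to TPM, which gives each library the same sum over genes, the median tested gene lay at -0.55 on the log2 scale in the LPS effect in macrophages (0.023 as deposited), at -0.38 in untreated osteoclasts against untreated macrophages (0 as deposited), at 0.12 in the same comparison with LPS (-0.016 as deposited) and at 0.51 in the interaction (-0.012 as deposited). After quantile normalization it lay at -0.14 in the LPS effect in macrophages. Markers matched the labelled cell types: all 8 osteoclast markers were higher in osteoclasts, and their summed level was 8.26 to 23.4 FPKM in the macrophage libraries and 28985 to 31979 FPKM in the osteoclast libraries. Macrophage markers were present in both, since they include Csf1r and Cd68, while Adgre1, which encodes F4/80, spanned 424 to 673 FPKM over the macrophage libraries and 31.2 to 73.1 FPKM over the osteoclast libraries. Within each cell type, Adgre1 was higher in every LPS-treated library than in every untreated one.

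The 7 genes fell mostly into 2 ranges, and H2-DMa moved between them. In osteoclasts H2-DMa lay above 52.2% of the genes with any read without LPS and above 54.5% with LPS. H2-DMb1 and Cd74 lay above 71.9% or more of the genes with any read in each group, as did H2-DMa in macrophages, while H2-Aa, H2-Ab1, H2-Eb1 and Ciita lay above 53.3% or fewer. H2-DMb1, the beta chain of DM, was the highest of the 7 by mean FPKM in 3 of the 4 groups, and in LPS-treated macrophages Cd74, which encodes the invariant chain, was the highest. The classical chains H2-Aa, H2-Ab1 and H2-Eb1 stayed at or under 1.38 FPKM in all 12 libraries, and Ciita at or under 0.279 FPKM. For comparison, H2-K1, a class I heavy chain, was at 219 ± 6.59 FPKM (SD, n = 3) in untreated macrophages, and its ratio to the summed classical class II chains was 179 ± 10.6 there and 106 ± 25.3 in untreated osteoclasts. The standard filter, at least 1 FPKM in at least 3 libraries, kept 11335 genes, among them 4 of the 7: H2-DMa, H2-DMb1, Cd74 and H2-Ab1. H2-Ab1 passed only through the 3 LPS-treated macrophage libraries, so a test after that filter had to find it high there. These 4 were tested with limma on log2(FPKM + 1), a scale that understates the change of low genes. To cover all 7, whole reads were recovered from the FPKM values and tested with limma's voom in the 18588 genes with at least 10 reads over all libraries, called the read test below; it was added after seeing that H2-Aa, H2-Eb1 and Ciita had not passed. Both tests used Benjamini-Hochberg adjustment of p over all genes tested, and a gene was called at an adjusted p under 0.05.

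**Figure D1:**
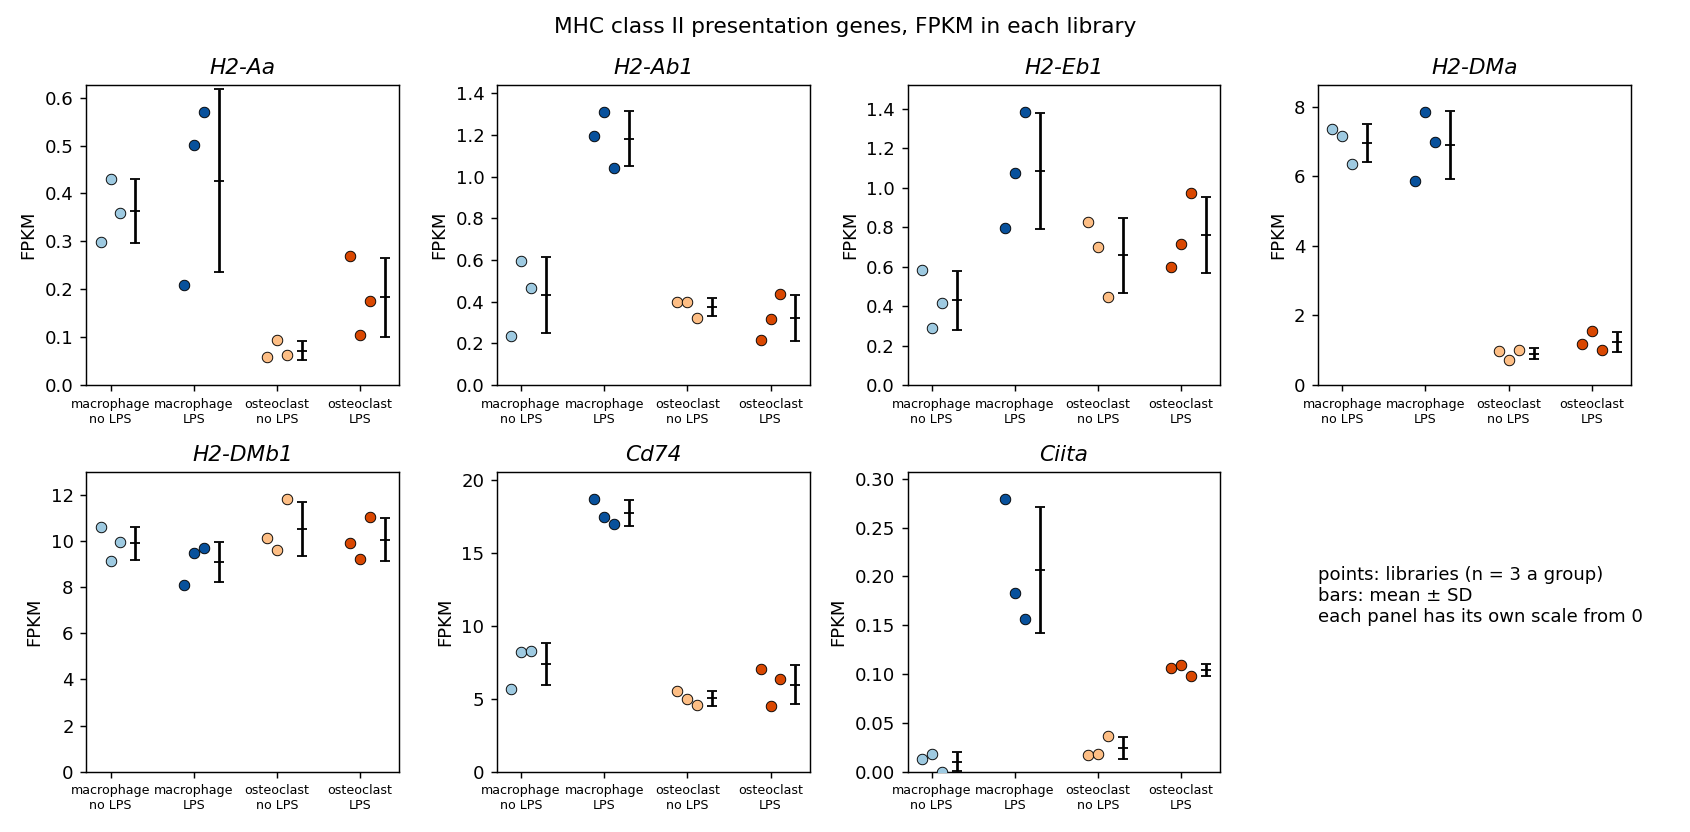
FPKM of the 7 genes in each library, 1 panel a gene with its own scale from 0; points are libraries and bars are mean ± SD (n = 3) for macrophages and osteoclasts without and with LPS. The 3 LPS-treated macrophage libraries lie above all others for H2-Ab1, Cd74 and Ciita, H2-DMa is low in all 6 osteoclast libraries, and H2-DMb1 lies between 8.07 and 11.8 FPKM throughout.

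LPS in macrophages raised Ciita, Cd74, H2-Ab1 and H2-Eb1, and left neither DM chain nor H2-Aa called. Ciita (chromosome 16, 10480059 to 10528418, GRCm38) had 3, 4 and 0 reads in the untreated macrophage libraries and 34, 26 and 21 in the LPS-treated ones. In FPKM these were 0.0136, 0.0178 and 0, against 0.279, 0.183 and 0.157. The groups did not overlap, and even the treated level was low. The pooled, scaled reads were 19.1-fold higher with LPS (exact 95% counting interval 8.87 to 49.1), and the read test gave a log2 difference of 4.46 ± 0.62 (SE; adjusted p 2.75e-06, voom). Without the third untreated library, which had 0 reads, that difference was 3.50 (adjusted p 1.89e-05, voom). Scaled to read totals, the pooled ratio was 12.4. Counting intervals here cover counting error only. Exons of Ciita overlap those of Dexi on the opposite strand over 329 bases, and strand use in counting is not stated; Dexi was at 2.14 ± 0.205 FPKM without and 2.35 ± 0.225 FPKM with LPS (n = 3 each).

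Cd74 (chromosome 18, 60803848 to 60812652) had the most reads of the genes that rose. Its levels were 5.69, 8.17 and 8.25 FPKM in untreated macrophages and 18.7, 17.4 and 16.96 FPKM after LPS. Every treated library exceeded every untreated one, by means 2.40-fold. The log2 difference was 1.17 ± 0.146 (SE; adjusted p 1.49e-05, limma). After rescaling to TPM it was 0.62 (adjusted p 0.00228, limma), and the ratio of pooled reads scaled to read totals was 1.55.

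Both beta chains of the classical molecules rose. H2-Ab1, the I-A beta chain (chromosome 17, 34257689 to 34269419), rose from 0.237, 0.598 and 0.466 FPKM to 1.20, 1.31 and 1.04 FPKM, with no overlap. These levels rested on 49 reads over the untreated and 81 over the treated libraries, a scaled ratio of 2.73 (1.89 to 3.98), and a log2 difference of 1.52 ± 0.346 in the read test (adjusted p 8.16e-04, voom); scaled to read totals the ratio was 1.76 and the log2 difference 0.89 (adjusted p 0.0296, voom). H2-Eb1, the I-E beta chain (chromosome 17, 34305867 to 34316674), rose from 0.583, 0.287 and 0.417 FPKM to 0.794, 1.08 and 1.38 FPKM, again with no overlap. Its pooled ratio was 2.55 (1.64 to 4.02), and its log2 difference 1.35 ± 0.395 (adjusted p 0.00666, voom); scaled to read totals it was 0.72 and no longer called (adjusted p 0.12). H2-Aa, the I-A alpha chain that pairs with H2-Ab1 (chromosome 17, 34282744 to 34287823), was at 0.299, 0.431 and 0.359 FPKM without and 0.209, 0.501 and 0.570 FPKM with LPS. The treated libraries of H2-Aa lay both below and above the untreated ones, and its log2 difference of 0.18 (95% interval -0.69 to 1.04) was not called (adjusted p 0.753, voom); scaled to read totals it was -0.46 (adjusted p 0.35).

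The DM chains, which load peptide onto the classical molecules, did not pass the test. H2-DMa (chromosome 17, 34119541 to 34139101) was at 7.36, 7.15 and 6.35 FPKM without and 5.87, 7.84 and 6.98 FPKM with LPS. H2-DMb1 (chromosome 17, 34153072 to 34160230) was at 10.6, 9.14 and 9.95 FPKM without and 8.07, 9.48 and 9.68 FPKM with LPS. Both pairs of groups overlapped, and the log2 differences were -0.02 (95% interval -0.26 to 0.23; adjusted p 0.908, limma) and -0.11 (-0.31 to 0.08; adjusted p 0.282, limma). This holds relative to the typical gene: after rescaling to TPM the differences were -0.64 and -0.75 (adjusted p 0.0014 and 2.05e-05, limma), near the -0.55 of the median gene. After quantile normalization H2-DMb1 was also called, at -0.30 (adjusted p 0.00921, limma).

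In counts, limma called 2 of the 4 tested genes in macrophages given LPS, Cd74 and H2-Ab1, both higher, where 69.9% of all tested genes were called and 36.8% were higher. The limma calls of H2-Ab1 that involve LPS-treated macrophages followed from the filter, here and in the counts below, and nothing rests on them. The read test called 4 of 7, all higher, where 51.3% of genes were called and 26.8% were higher. The count of the read test is near the share called among all genes. Scaled to read totals it was 3 higher and 2 lower, without H2-Eb1 and with both DM chains lower; after rescaling to TPM limma called 2 higher and 2 lower.

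In osteoclasts, Ciita was the gene of the 7 that the read test called after LPS, with 3, 3 and 6 reads in the untreated and 20, 16 and 17 in the treated libraries. The levels were 0.0170, 0.0186 and 0.0370 FPKM against 0.106, 0.109 and 0.0977 FPKM. The groups did not overlap, the pooled ratio was 4.32 (2.28 to 8.89), and the log2 difference was 2.05 ± 0.546 (adjusted p 0.015, voom). It was no longer called without the first untreated osteoclast library (1.86, adjusted p 0.0762) or the second (1.93, adjusted p 0.0658). Cd74 was at 5.53, 4.99 and 4.55 FPKM without and 7.06, 4.51 and 6.33 FPKM with LPS. These groups overlapped, and its log2 difference was 0.19 (95% interval -0.13 to 0.51; adjusted p 0.411, limma).

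The second LPS-treated osteoclast library was lowest for Cd74, and it was also lowest of its group for the macrophage marker Adgre1, at 42.5 FPKM against 73.1 and 70.9 FPKM. The ratio of Cd74 to Adgre1 was 0.152 ± 0.00769 without and 0.0973 ± 0.00836 with LPS in osteoclasts (SD, n = 3 each). In macrophages that ratio was 0.0172 ± 0.00346 without and 0.0264 ± 0.00125 with LPS. H2-Ab1 was at 0.397, 0.398 and 0.323 FPKM without and 0.216, 0.317 and 0.435 FPKM with LPS. H2-Eb1 was at 0.824, 0.700 and 0.447 FPKM without and 0.597, 0.712 and 0.972 FPKM with LPS. Treated and untreated osteoclasts overlapped for both beta chains, with log2 differences of -0.26 (95% interval -1.20 to 0.68) and 0.21 (-0.61 to 1.02) in the read test (adjusted p 0.809 and 0.825, voom).

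For H2-Aa the osteoclast libraries held 2, 3 and 2 reads without and 10, 3 and 6 with LPS, a log2 difference of 1.16 (95% interval -0.10 to 2.42) that was not called (adjusted p 0.258, voom). H2-DMa was at 0.991, 0.721 and 1.00 FPKM without and 1.17, 1.54 and 1.00 FPKM with LPS. H2-DMb1 was at 10.1, 9.60 and 11.8 FPKM without and 9.90, 9.22 and 11.03 FPKM with LPS. Neither DM chain was called after LPS in osteoclasts, at 0.23 (95% interval -0.01 to 0.47; adjusted p 0.187, limma) and -0.06 (-0.25 to 0.14; adjusted p 0.723, limma).

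Limma called 0 of the 4 tested genes in osteoclasts given LPS, where 17.7% of all genes were called; 0 of the 4 had an unadjusted p under 0.05, the lowest being 0.0624 for H2-DMa. The read test called 1 of 7, where 12.3% were called and 7.62% were higher.

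**Figure D2:**
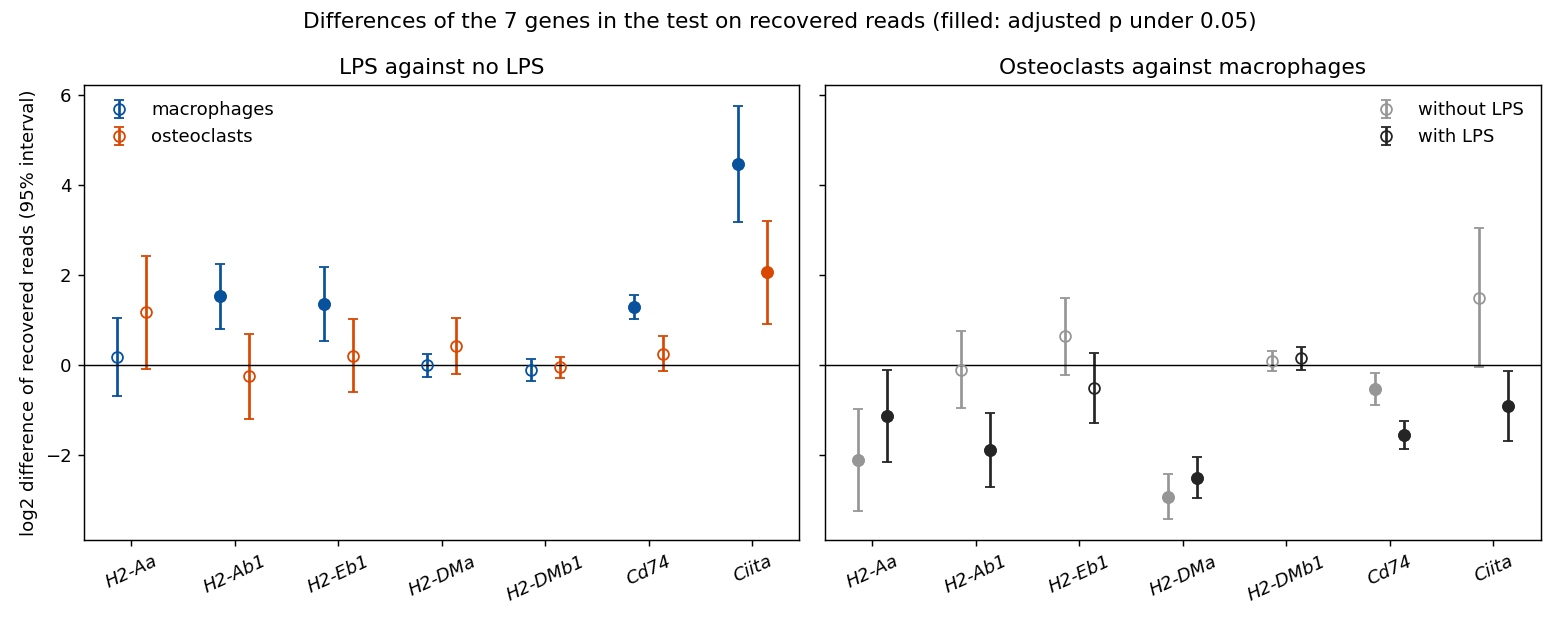
Log2 differences of the 7 genes in the test on recovered reads, with 95% intervals; left, LPS against no LPS in macrophages and osteoclasts, and right, osteoclasts against macrophages without and with LPS. Filled points have an adjusted p under 0.05: on the left Ciita, Cd74, H2-Ab1 and H2-Eb1 in macrophages and Ciita in osteoclasts, and on the right H2-DMa furthest below 0.

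The difference between the LPS effects of the cell types was tested as an interaction, the effect in osteoclasts minus that in macrophages. It was -0.98 ± 0.206 for Cd74 (adjusted p 0.00153, limma), -1.78 ± 0.568 for H2-Ab1 (adjusted p 0.0177, voom) and -2.41 ± 0.827 for Ciita (adjusted p 0.0275, voom). For Cd74, H2-Ab1 and Ciita, then, the log2 difference with LPS was smaller in osteoclasts than in macrophages. For H2-Eb1 the interaction was -1.14 (95% interval -2.30 to 0.01; adjusted p 0.123, voom), for H2-Aa 0.98 (-0.54 to 2.51; adjusted p 0.338, voom), for H2-DMa 0.24 (-0.10 to 0.59; adjusted p 0.207, limma) and for H2-DMb1 0.06 (-0.22 to 0.34; adjusted p 0.732, limma). Limma called 2 of 4 tested genes, both lower, where 56.6% of all genes were called and 30.0% were lower, and the read test 3 of 7, all lower, where 35.0% were called and 18.9% were lower. After rescaling to TPM limma called 1 lower and 2 higher.

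Scaling changed calls of the interaction in both directions. Those of the DM chains were called higher after rescaling to TPM, at 0.92 for H2-DMa (adjusted p 0.0016, limma) and 0.62 for H2-DMb1 (adjusted p 0.002, limma), and when scaled to read totals, at 0.9996 and 0.63 (adjusted p 0.014 and 0.00249, voom). The interaction of Cd74 was lost: it was -0.47 after rescaling to TPM (adjusted p 0.0647, limma) and -0.46 scaled to read totals (adjusted p 0.104, voom). That of Ciita was lost without the third untreated macrophage library, which had 0 reads (-1.45, adjusted p 0.139, voom), the first LPS-treated macrophage library (-2.19, adjusted p 0.0506) or the third untreated osteoclast library (-2.10, adjusted p 0.0908), and also when scaled to read totals (-1.83, adjusted p 0.0718). That of H2-Ab1 was lost in the read test without the first LPS-treated osteoclast library (-1.50, adjusted p 0.0581, voom) and when scaled to read totals (-1.21, adjusted p 0.0849, voom).

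Without LPS, osteoclasts differed from macrophages most in H2-DMa, the alpha chain of DM. Its 3 macrophage libraries, at 6.35 to 7.36 FPKM, lay far above the osteoclast libraries, at 0.721 to 1.00 FPKM. By means it was 7.68-fold lower in osteoclasts, and the log2 difference was -2.06 ± 0.110 (adjusted p 3.89e-09, limma); the read test, with no pseudocount of 1 FPKM, gave -2.93 ± 0.239 (adjusted p 5.35e-10, voom). Fewer cells of a type and less RNA per cell cannot be told apart in such bulk samples. In the annotation used here (GENCODE release M21), exons of H2-DMa overlap those of Brd2 on the opposite strand over 360 bases. Brd2 ran the other way, at 28.0 ± 0.636 FPKM in untreated macrophages and 69.4 ± 4.18 FPKM in untreated osteoclasts (n = 3 each).

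H2-DMb1, the partner chain, did not follow: 9.14 to 10.6 FPKM in macrophages and 9.60 to 11.8 FPKM in osteoclasts, with overlapping groups and a log2 difference of 0.08 (95% interval -0.12 to 0.27; adjusted p 0.449, limma). After rescaling to TPM that difference was -0.32 (adjusted p 0.0113, limma), close to the -0.38 of the median gene. H2-DMb1 shares 27.2% of its 50-base windows with H2-DMb2, another DM beta gene next to it, so part of its reads could be split between them. H2-DMb2 was low, at 0.890 ± 0.0275 FPKM in untreated macrophages and 0.109 ± 0.0780 FPKM in untreated osteoclasts (n = 3 each).

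The ratio of H2-DMa to H2-DMb1, taken within each library, does not depend on how libraries were scaled. It was 0.696, 0.783 and 0.638 in untreated macrophages and 0.0980, 0.0751 and 0.0850 in untreated osteoclasts. With LPS it was 0.727, 0.827 and 0.721 in macrophages and 0.118, 0.167 and 0.0908 in osteoclasts. All 6 osteoclast libraries lay below all 6 macrophage libraries. The difference of the mean log2 ratio, osteoclasts minus macrophages, was -3.04 without and -2.64 with LPS, each with a two-sided exact permutation p of 0.1, the smallest that 3 against 3 allows. LPS against no LPS gave 0.11 in macrophages (exact p 0.4) and 0.51 in osteoclasts (exact p 0.2).

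**Figure D3:**
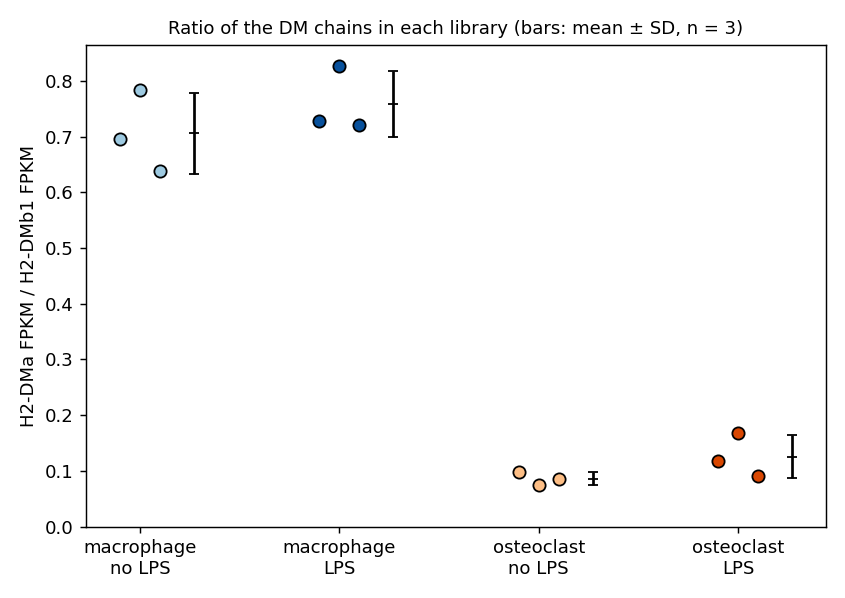
Ratio of H2-DMa to H2-DMb1 in FPKM in each library, with mean ± SD (n = 3) for each of the 4 groups; the vertical axis starts at 0. The macrophage libraries lie between 0.638 and 0.827 and the osteoclast libraries between 0.0751 and 0.167.

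H2-Aa and Cd74 were also lower in untreated osteoclasts. H2-Aa had 13, 19 and 15 reads in macrophages and 2, 3 and 2 in osteoclasts, or 0.299 to 0.431 FPKM against 0.0578 to 0.0947 FPKM, with no overlap. The pooled reads were 5.10-fold higher in macrophages (2.29 to 13.4), and the log2 difference was -2.12 ± 0.545 (adjusted p 0.00187, voom). For Cd74 the macrophage libraries, from 5.69 FPKM, lay just above the osteoclast libraries, up to 5.53 FPKM, and the log2 difference was -0.46 ± 0.146 (adjusted p 0.012, limma). Cd74 was not called without the second untreated macrophage library (-0.39, adjusted p 0.0503) or the third (-0.38, adjusted p 0.0518). After rescaling to TPM it was -0.91 (adjusted p 1.25e-04, limma).

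H2-Ab1 and H2-Eb1 overlapped between untreated osteoclasts and macrophages, with log2 differences of -0.11 (95% interval -0.96 to 0.75; adjusted p 0.842, voom) and 0.63 (-0.24 to 1.49; adjusted p 0.2, voom). Ciita was at the edge of detection in both, with 7 reads in all in macrophages and 12 in osteoclasts, and a log2 difference of 1.49 (-0.05 to 3.03; adjusted p 0.0869, voom). It was 0.53 without the third untreated macrophage library (adjusted p 0.504, voom) and 2.07, and called, without the second (adjusted p 0.0455, voom). Limma called 2 of the 4 tested genes, both lower in osteoclasts, where 77.8% of all genes were called and 39.0% were lower; the read test called 3 of 7, all lower, where 62.5% were called and 32.3% were lower.

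With LPS, 5 of the 7 genes were lower in osteoclasts than in macrophages by the read test, where 66.1% of genes were called and 35.4% were lower. Limma called 3 of 4, all lower, where 83.9% were called and 43.0% were lower. Cd74, at 4.51 to 7.06 FPKM against 16.96 to 18.7 FPKM, was 2.96-fold lower (log2 difference -1.44 ± 0.146, adjusted p 1.35e-06, limma). H2-DMa, at 1.00 to 1.54 FPKM against 5.87 to 7.84 FPKM, was 5.57-fold lower (-1.82 ± 0.110, adjusted p 9.62e-09, limma). H2-Ab1, at 0.216 to 0.435 FPKM against 1.04 to 1.31 FPKM, differed by -1.89 ± 0.392 (adjusted p 2.28e-04, voom). None of these 3 genes overlapped between the groups.

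Ciita and H2-Aa were called with little margin. Ciita differed by -0.92 ± 0.372 (adjusted p 0.0355, voom) with no overlap, and H2-Aa by -1.14 ± 0.490 (adjusted p 0.0474, voom) with libraries that overlapped. Scaled to read totals, neither was called (-0.62, adjusted p 0.151, and -0.83, adjusted p 0.14). Ciita was also lost without the first LPS-treated macrophage library or any of the 3 LPS-treated osteoclast libraries (adjusted p 0.0558 to 0.145), and H2-Aa without 9 of the 12 libraries in turn. H2-Eb1 and H2-DMb1 were not called, at -0.52 (95% interval -1.28 to 0.25; adjusted p 0.23, voom) and 0.13 (-0.06 to 0.33; adjusted p 0.185, limma). H2-DMb1 was, however, called higher in osteoclasts after rescaling to TPM (0.29, adjusted p 0.0178, limma), after quantile normalization (0.24, adjusted p 0.0251, limma) and when scaled to read totals (0.44, adjusted p 0.00318, voom), so limma then counted 1 higher and 3 lower. These comparisons share control groups with those above, so their calls are not independent of one another.

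The order of the 4 groups differed by gene. Cd74 ran from LPS-treated macrophages through untreated macrophages and LPS-treated osteoclasts to untreated osteoclasts, and the neighbours in the last 2 steps overlapped. For Ciita the order was LPS-treated macrophages, LPS-treated osteoclasts, untreated osteoclasts and untreated macrophages; only the untreated groups were not separated by the test. H2-DMa separated by cell type, with each pair of LPS-treated and untreated groups overlapping. H2-Ab1 had LPS-treated macrophages above 3 groups that overlapped one another, and H2-DMb1 had no separated neighbours.

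Of the other class II chains, H2-Ob, the beta chain of DO, an inhibitor of DM, had 33, 20 and 25 reads in untreated and 10, 20 and 17 in LPS-treated macrophages. No read was found in the 6 osteoclast libraries. Taking the floor of 3 reads over a group, it was at least 19.7-fold lower in osteoclasts without and at least 20.1-fold lower with LPS, and the exact 95% counting limit was 15.7-fold in both; it passed the read minimum only through the macrophages. H2-DMb2 had 105 reads in untreated macrophages, 30 with LPS, and 10 and 7 in osteoclasts. Its drop with LPS in macrophages (log2 difference -1.28 ± 0.447, adjusted p 0.0203, voom) ran against the rise of Cd74 and Ciita. The pooled level of H2-DMb2 was 7.97-fold higher in untreated macrophages than in untreated osteoclasts (4.17 to 17.1). Of the 50-base windows of H2-DMb2, 30.9% are shared with other genes. H2-Oa, the alpha chain of DO, held 0 to 4 reads per library, and H2-Eb2 and H2-Ea-ps held none.

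The processing genes around the class II molecules were mostly lower in osteoclasts. Of 9 genes for invariant chain and antigen processing and for class II turnover, limma called 8 lower and 1 higher in untreated osteoclasts, where 77.8% of all genes were called and 39.0% were lower, with a median log2 difference of -0.999 against 0 over all genes. Of the 8, March1 passed the filter only through macrophage libraries, so its lower call followed from the filter. Ctss, the protease that trims the invariant chain, was at 672 ± 5.40 FPKM in untreated macrophages and 163 ± 18.0 FPKM in untreated osteoclasts (n = 3 each; log2 difference -2.04, adjusted p 2.7e-08, limma). Lgmn, an asparaginyl endopeptidase of endosomes, went from 537 ± 17.2 to 67.0 ± 2.54 FPKM. The exception was Ifi30, the thiol reductase GILT that unfolds antigens in lysosomes, which went from 85.2 ± 3.43 FPKM in untreated macrophages to 857 ± 16.03 FPKM in untreated osteoclasts (3.32, adjusted p 2e-14, limma).

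LPS in macrophages gave 5 higher and 2 lower of these 9 genes, where 69.9% of all genes were called and 36.8% were higher, but 2 higher and 6 lower after rescaling to TPM. The 2 genes with the largest changes were March1, a ubiquitin ligase that removes class II from the surface (3.42 ± 0.227 to 16.03 ± 3.18 FPKM; 1.93, adjusted p 6.4e-08, limma), and Sppl2a, the protease that clears the last membrane stub of the invariant chain (23.8 ± 1.26 to 82.2 ± 2.08 FPKM; 1.75, adjusted p 2.9e-10, limma). In osteoclasts 1 of the 9 rose, Sppl2a by 0.25 (adjusted p 0.025, limma), and 1 fell, Lgmn (-0.13, adjusted p 0.032, limma); after rescaling to TPM 0 rose and 3 fell. The count of 2 became 1 without any 1 of the 3 untreated osteoclast libraries or the first LPS-treated one, and 0 without the third LPS-treated one. It was also 0 without a filter and with only the groups compared, 1 with the replicate block, without a variance trend and in the read test, and 5 (1 higher, 4 lower) scaled to read totals; 17.7% of all genes were called.

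Transcription factors of class II genes did not move as a block. Of 13 listed, 12 were tested, and LPS in macrophages raised 9 and lowered 3 (36.8% of all genes were higher), or 5 and 4 after rescaling to TPM. The largest difference of the 12 was that of Irf1, an interferon regulatory factor, which went from 7.17 ± 0.426 to 375 ± 5.12 FPKM (log2 difference 5.52, adjusted p 9.3e-13, limma). Subunits of the complexes at the X and Y boxes split, with Rfx5 higher (0.60, adjusted p 4.3e-05, limma) and Rfxap and Nfya lower (-1.06, adjusted p 3.2e-05, and -0.93, adjusted p 1.4e-07, limma). Prdm1, which encodes the repressor Blimp-1, rose from 2.11 ± 0.192 to 20.6 ± 1.42 FPKM.

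In osteoclasts LPS raised 2 of the 12, among them Irf1 (2.57, adjusted p 1.6e-08, limma), near the 17.7% called over all genes. Without LPS, 6 of the 12 were lower and 3 higher in osteoclasts, near the 77.8% called and 39.0% lower over all genes. Irf8, a myeloid factor that also opposes osteoclast formation, averaged 22.7 ± 1.05 FPKM in the macrophage libraries and 1.08 ± 0.0753 FPKM in those of osteoclasts (-3.50, adjusted p 3.8e-12, limma). Prdm1 was already at 19.5 ± 0.152 FPKM in untreated osteoclasts (2.72, adjusted p 8.7e-13, limma).

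Ifng, which encodes interferon gamma, the main inducer of CIITA in macrophages, was listed at 0 FPKM in all 12 libraries. Of 8 genes of interferon and interleukin-10 signals, 7 were tested, and all 7 rose with LPS in macrophages (5 rose and 1 fell after rescaling to TPM), where 69.9% of all genes were called and 36.8% were higher. Of the 7, Ifnb1, which encodes interferon beta, passed the filter only through the 3 LPS-treated macrophage libraries (0 FPKM in every untreated library), so its call there followed from the filter. Another of the 7 was Il10, an interleukin that restrains macrophage activation, from 0.761 ± 0.350 to 82.6 ± 1.53 FPKM (5.59, adjusted p 1.4e-11, limma). In osteoclasts 5 of the 7 rose, where 17.7% of all genes were called, and Il10 reached 1.70 ± 0.395 FPKM.

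Class I genes and co-stimulatory genes gave a yardstick measured in the same libraries. All 10 class I genes rose with LPS in macrophages, with a median log2 difference of 1.73 against 0.02 over all genes, and 9 of 10 rose in osteoclasts, with a median of 0.46 against 0.01; over all genes 36.8% were higher in macrophages, and 17.7% were called in osteoclasts. Nlrc5, the class I counterpart of Ciita, went from 2.61 ± 0.293 to 18.8 ± 4.20 FPKM in macrophages (2.44, adjusted p 1.5e-08, limma) and from 0.682 ± 0.0334 to 1.56 ± 0.384 FPKM in osteoclasts (0.60, adjusted p 0.014, limma). In the interaction all 10 class I genes were lower, where 56.6% of all genes were called and 30.0% were lower. After rescaling to TPM 9 of 10 were lower, against 1572 of all 11335 genes, and after quantile normalization 7 of 10, against 2734 of 11335. The 5 tested co-stimulatory genes all rose in macrophages and 4 of 5 in osteoclasts, where Cd40 went from 0.406 ± 0.142 to 28.9 ± 5.50 FPKM.

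**Figure D4:**
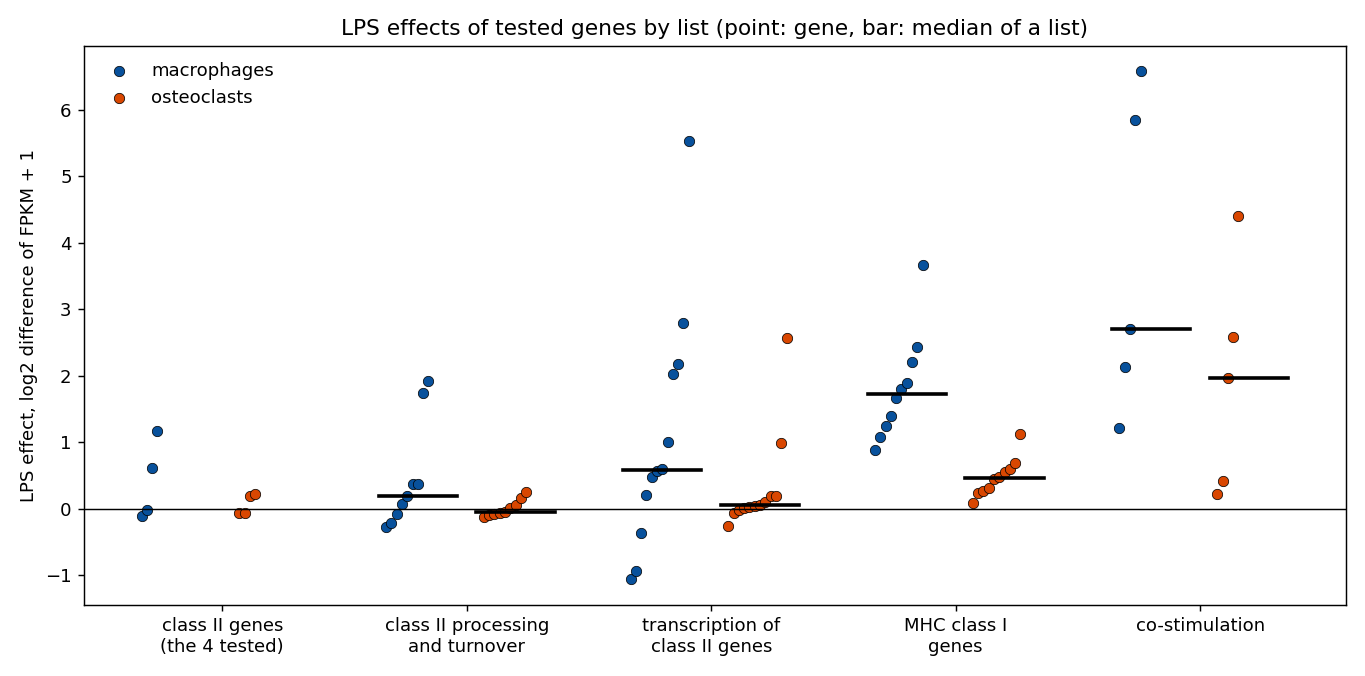
LPS effects as log2 differences of FPKM + 1 in macrophages and osteoclasts for the tested genes of 5 lists; each point is a gene, and the bar is the median of a list, not drawn for the 4 class II genes that passed the filter. The class I medians are 1.73 in macrophages and 0.46 in osteoclasts, and the 4 class II genes that passed the filter lie between -0.11 and 1.17 in macrophages; the read test, which covers all 7, spans -0.12 to 4.46 there with a median of 1.28.

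Several markers of other cell types moved with these groups. B cells carry much class II, and their 8 markers summed to 1.52 to 1.74 FPKM in untreated macrophages, 0.762 to 1.18 FPKM in LPS-treated macrophages and at most 0.224 FPKM in osteoclasts. The B cell sum was thus lower with LPS where Cd74 and H2-Ab1 rose. The 8 dendritic cell markers summed to 1.29 to 1.79 FPKM in untreated macrophages, 6.90 to 7.33 FPKM after LPS, and 8.13 to 9.66 FPKM in osteoclasts, and 5 of the 8 stayed under 1 FPKM in every library. The 6 stromal markers summed to 26.1 to 36.0 FPKM in macrophages and at most 1.39 FPKM in osteoclasts. The 7 T cell markers, 3 of them at 0 in every library, summed to 0.576 to 0.734 FPKM in untreated macrophages, 2.63 to 2.97 FPKM after LPS, and 3.04 to 4.06 FPKM in osteoclasts. The 6 neutrophil markers summed to 4.25 to 12.3 FPKM in macrophages and at most 1.76 FPKM in osteoclasts. The part of these 5 marker lists in the results on the 7 genes, H2-Ob and H2-DMb2 was not tested.

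The genes whose levels over the 12 libraries were most like the mean standardized level of H2-Aa, H2-Ab1, H2-Eb1 and Cd74, of the 6430 genes averaging 5 FPKM or more, were Lsg1, Sertad3, Trp53, Stip1 and Gm49172, with Pearson r from 0.976 to 0.965. Most like Ciita were Pdpn, Ahctf1, Saa3, Relb and Nos2, with r from 0.958 to 0.951. These are descriptions over 12 libraries that fall into 4 groups and share 1 scaling. In Saa3, an acute-phase protein gene, LPS moved macrophages from 0.232 to 101 FPKM and osteoclasts from 0.0296 to 7.43 FPKM by group means.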

How the data were processed

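Per the labels' protocols, RNA was extracted with a column kit including DNase treatment and made into libraries with a NEBNext Ultra kit, whose strand use is not given. The submitters' processing notes name fastp, STAR, featureCounts, DESeq2 and mm10, with no order or settings. The authors deposited FPKM for 54532 Ensembl genes in 12 libraries. Of 25854 genes above 0, 25849 (99.98%) gave whole reads within a tolerance of 0.02, and library denominators followed median-of-ratios size factors within 0.024%. For the 7 genes except Ciita the implied gene length was shorter than in GENCODE M21 (H2-Aa 1874 against 3798 bases), which affects levels between genes and not differences within a gene.

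Limma 3.58.1 (R 4.3.3; variance trend, all 12 libraries, 4 group means) was run on log2(FPKM + 1) for genes reaching 1 FPKM in 3 or more libraries, and voom on the recovered reads, taking the deposited denominators for library sizes. Tests were two-sided. On simulated LPS effects in macrophages, limma called 91.4% of the 58 tested genes changed 2-fold and 100% of the 65 changed 4-fold. Of its calls among 10756 genes, 8.53% were false. Voom called 65.7% of 99 and 83.7% of 98 among 18598 genes, with 3.29% of calls false. The simulation changed far fewer genes than LPS did here and gave every gene the same dispersion, so these rates need not hold for these data. Alternatives were another pseudocount, other filters, TPM, quantile normalization, only the groups compared, a replicate block, no variance trend, voom and each library left out. The 7 genes and all lists were chosen with earlier results of these data known. Genes named are the 7, any gene of the lists (of other class II chains, processing, transcription, interferon and interleukin-10 signals, class I, co-stimulation and cell markers) and the 5 most like each of 2 patterns; Brd2 and Dexi were added for their overlap, and some listed genes are not reported here by name. Gene positions came from GENCODE M21 (GRCm38).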

Additional observations from a re-analysis of the deposited data

Results flagged for a closer look

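For 3 genes the LPS effects of the 2 cell types were set apart by a test of the difference itself, osteoclasts minus macrophages. It was -0.98 for Cd74 (adjusted p 0.00153, limma). It was -2.41 for Ciita (adjusted p 0.0275, voom on recovered reads). For H2-Ab1 it was -1.78 (adjusted p 0.0177, voom on recovered reads); limma gave -0.67 (adjusted p 0.00179), on which nothing rests, since H2-Ab1 passed the filter only through LPS-treated macrophages. Scaled to read totals, none of the 3 was called in the read test (Cd74 -0.46, adjusted p 0.104; H2-Ab1 -1.21, adjusted p 0.0849; Ciita -1.83, adjusted p 0.0718; voom), nor was Cd74 after rescaling to TPM (-0.47, adjusted p 0.0647, limma).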

How the results depend on the processing

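Of the 7 genes, limma tested the 4 that passed the filter. It called 2, 0, 2, 3 and 2 in the LPS effect in macrophages, that in osteoclasts, osteoclasts against macrophages without and with LPS, and the interaction. Without a filter all 7 were tested, and 4 were called in the first contrast and 5 with LPS between cell types. At a mean of at least 5 FPKM, 1 was called in each contrast except LPS in osteoclasts, since H2-DMa and H2-Ab1 were not tested. TPM gave 4 for LPS in macrophages (2 higher, 2 lower). The read test gave 4, 1 and 5 for LPS in macrophages, LPS in osteoclasts and osteoclasts against macrophages with LPS; scaled to read totals, LPS gave 5 in macrophages (3 higher, 2 lower) and 1 in osteoclasts. Leaving out each library in turn, limma gave 1 to 2 without LPS between cell types and the same counts as the full fit in the other contrasts. In the 12 such fits of the read test, Ciita was called in 10 with LPS in osteoclasts, 1 without and 8 with LPS between cell types, and 9 in the interaction; H2-Aa in 3 with LPS and Cd74 in 11 without LPS between cell types, and H2-Ab1 in 11 in the interaction. The other differences of the 7 genes were called in all 12 or in 0.

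Scaling turned the direction of 3 differences, none of them called as reported: H2-Aa with LPS in macrophages (-0.46, read totals), H2-Ab1 without LPS between cell types (limma, 0.13, quantile) and H2-DMb1 there (-0.32, TPM; -0.19, read totals). The cause was not tested. Leaving out 1 library turned small values within these ranges: H2-Aa (-0.072 to 0.57) and H2-DMa (-0.10 to 0.081) with LPS in macrophages; H2-Ab1 (limma -0.12 to 0.0026, read test -0.50 to 0.017), H2-Eb1 (-0.035 to 0.39) and H2-DMb1 (-0.12 to 0.023) with LPS in osteoclasts; H2-Ab1 (limma -0.16 to 0.027, read test -0.48 to 0.17) and H2-DMb1 (-0.0024 to 0.13) without LPS between cell types; and the interaction of H2-DMb1 (-0.018 to 0.14).

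Over all genes, TPM changed the calls from 4168 higher and 3753 lower to 1797 and 7933 for LPS in macrophages, from 4401 and 4421 to 2760 and 6457 without LPS between cell types, and from 3012 and 3401 to 7175 and 1572 in the interaction. Libraries of different groups with the same replicate number deviated from their group means with correlations of -0.07 to 0.10. Of 18 such pairs, 1 was over 0.1. Correlations this small cannot settle whether libraries of the same number shared a culture, and the labels do not say. A fit with the replicate block called 2, 0, 2, 3 and 2 of the 4 tested genes, as without it, and 1 in place of 2 of the 9 processing genes with LPS in osteoclasts. Depth limits H2-Aa, H2-Eb1, H2-Ab1 and Ciita, which had 7 to 81 reads per group.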
